A study of Mus musculus with 6 samples.

Results

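A set of 31 genes of glycolysis, glucose and lactate transport, glycogen turnover and the start of the pentose phosphate pathway were followed in mouse hearts. They were chosen by gene symbol, and 31 of 31 were found among the 26835 genes of the deposited table; for Aldoa, whose symbol stands on a second row with a mean of 0.187 FPKM, the row with the higher level was kept. FPKM is a fragment count divided by the length of the gene and by the size of the library. The hearts came from C57BL/6 mice of wild-type genotype, 7 to 8 weeks old and 20 ± 2 g in weight. In the control group the mice received 10% DMSO, a solvent, by intraperitoneal injection. In the CFZ group they received carfilzomib at 8 mg/kg by the same route, and in the CFZ_EA group carfilzomib at that dose with electroacupuncture at the PC6 acupoint. All 3 groups carry the same time label, days 0, 2, 4 and 6, and each holds 2 libraries of poly(A)-selected RNA. The series' title names carfilzomib-induced cardiotoxicity and its change by electroacupuncture as the subject, so the comparisons are CFZ with control, CFZ_EA with CFZ and CFZ_EA with control.

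Carfilzomib is a proteasome inhibitor used against multiple myeloma, and heart failure is among its known adverse effects. The adult heart burns mainly fatty acids but keeps a large glycolytic capacity: glucose enters through GLUT4 and GLUT1, is trapped by hexokinase, passes through phosphofructokinase as the main control point, and leaves as pyruvate or lactate. Most steps are served by several isoenzymes, of which a muscle or heart form is the major one in cardiomyocytes and a widely expressed form is the major one in many other cells. Glycogen, the local glucose store, is built by glycogenin, glycogen synthase and branching enzyme and taken down by glycogen phosphorylase.

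Library totals ran from 50013990 to 75742448 estimated counts, and the 31 genes together took 1.66% to 1.82% of them. No label ties a library to a mouse, and each p-value is therefore set against the spread of these libraries, part or all of which may be technical. With 2 libraries against 2, an exact two-sided permutation test of a single value cannot go below p = 0.333, so single values are given as a description. The 9 ventricular cardiomyocyte markers summed to 19701 and 18927 FPKM in control, 21649 and 22160 FPKM with CFZ and 21499 and 20001 FPKM with CFZ_EA, so that all 4 libraries from treated mice were above both controls. Singly, only Myl2, Myh6 and Tnni3 were above both controls in all 4. The other markers were not, such as Actc1, at 7749 FPKM in CFZ_EA replicate 2 against 8039 and 7851 FPKM in control. Skeletal muscle markers (7 of 8 in the table) summed to between 2.32 and 3.77 FPKM, with Myh1 and Myh2 at or near 0 in all libraries. Control replicate 2 stood apart: 8 fibroblast and matrix markers summed to 1044 FPKM there against 124 to 199 elsewhere, and 7 macrophage markers to 837 against 215 to 287. Atrial markers ran from 209 FPKM in CFZ replicate 2 to 5721 FPKM in CFZ_EA replicate 2, and erythroid markers were higher in both control libraries (4962 and 5666) than in the other 4 (2466 to 3470). Whether any of this had a part in the results below was not tested. These are whole-tissue libraries, so fewer cells of a type and less RNA per cell cannot be told apart.

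The heart forms of the lower glycolytic enzymes were the highest of the 31 genes (plot of levels by library). Lactate dehydrogenase B (Ldhb) had a mean over the 6 libraries of 1084 FPKM, muscle enolase (Eno3) of 998 FPKM, muscle phosphoglycerate mutase (Pgam2) of 959 FPKM and aldolase A (Aldoa) of 809 FPKM. Muscle glycogen phosphorylase (Pygm) followed at 402 FPKM and muscle phosphofructokinase (Pfkm) at 349 FPKM. In all, 12 of the 31 genes were above 100 FPKM, and 8 were below 10 FPKM: H6pd, Pgd, Slc2a1, Gbe1, Pfkp, Pfkfb2, Pfkfb1 and Slc16a3. The lactate exporter Slc16a3 (MCT4) was the lowest, at 0.766 FPKM, and was the only one of the 31 below the mean of 1 FPKM required for testing. The other 30 were tested among 10329 genes, and none of the 30 was under 1.46 FPKM in any library. For 21 of the 31 genes the highest library was less than 1.5 times the lowest, with pyruvate kinase (Pkm) the steadiest at 1.08 times and Slc16a3 the least steady at 8.66 times.

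**Figure D1:**
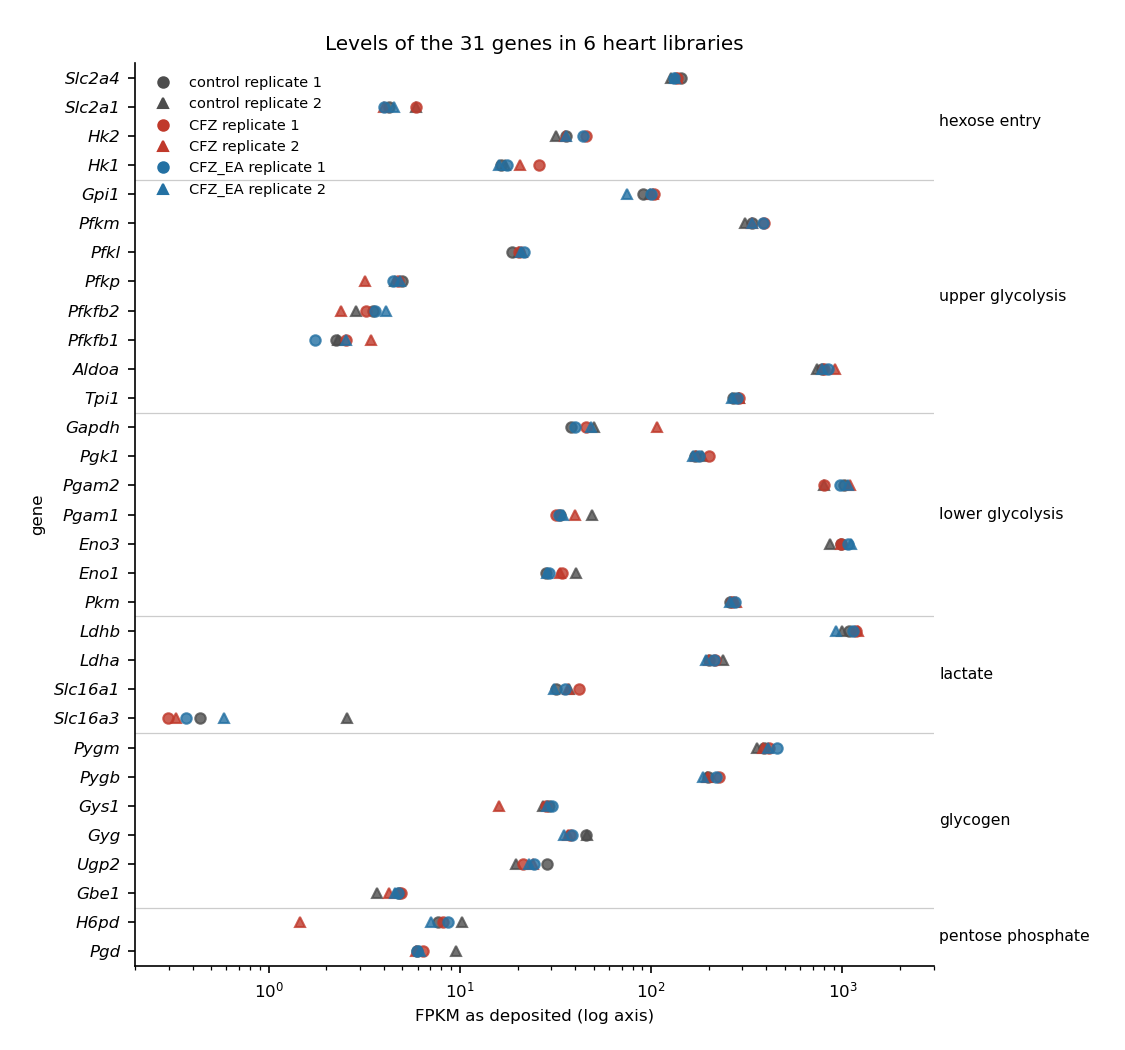
FPKM as deposited (horizontal log axis) of the 31 genes, grouped by step, with 1 point per library; colour is the group and shape the replicate. Most genes have 6 close points; Slc16a3 in control replicate 2 (2.58 FPKM), H6pd in CFZ replicate 2 (1.46 FPKM) and Gapdh in CFZ replicate 2 (108 FPKM) lie away from the rest.

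Levels between genes depend on which length is used. For 9365 of 9679 genes (96.8%) the deposited FPKM were, within 1%, the counts divided by the union of all exons annotated in GENCODE M21, up to a constant per library. A gene with many long minor isoforms is therefore listed lower than its main transcript alone would place it. The union was 3.23 times the main coding transcript for the platelet-type phosphofructokinase Pfkp, 2.91 times for Gapdh, 2.65 times for enolase 1 (Eno1) and 2.22 times for hexokinase 1 (Hk1), but 1.08 times for hexokinase 2 (Hk2). Rescaled to the main transcript, Aldoa came first with a mean of 1558 FPKM, ahead of Ldhb at 1305 FPKM and Eno3 at 1109 FPKM. Hk1 and Hk2 became equal, at 41.9 and 41.3 FPKM, where the deposited values were 18.9 and 38.2 FPKM. Gapdh, the glyceraldehyde phosphate dehydrogenase often used as a reference gene, took the 14th place of 31 on either scale, at 55.0 FPKM as deposited and 160 FPKM rescaled. Comparisons of a gene between libraries are not affected by this, since its length is the same in all of them.

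**Figure D2:**
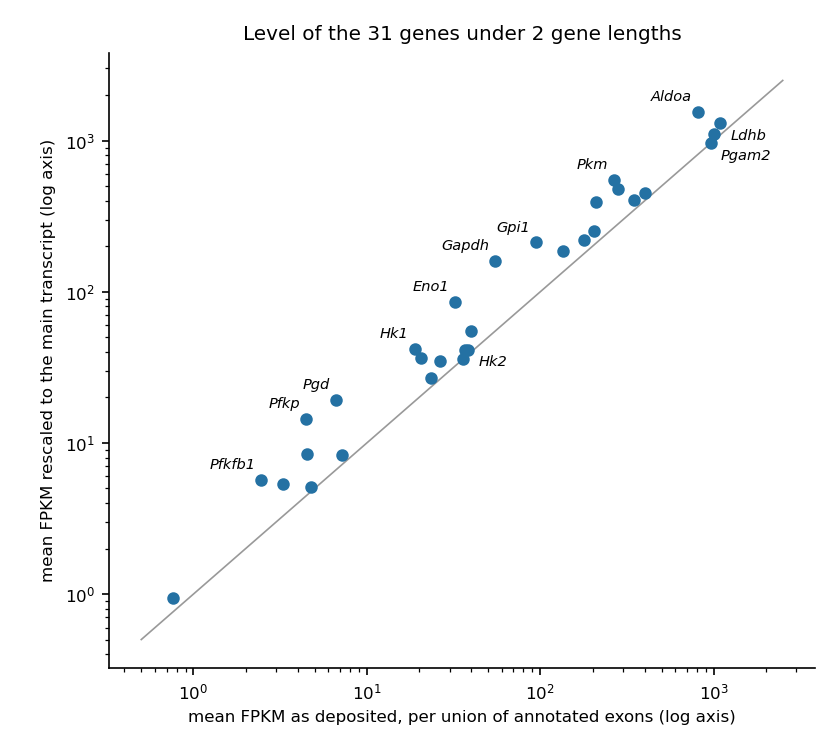
Mean over 6 libraries of the deposited FPKM (horizontal log axis) against the same value rescaled to the main transcript (vertical log axis), 1 point per gene, with the line of equality. Points lie on or above the line. Pfkp, Gapdh, Pgd, Eno1, Pfkfb1, Gpi1, Hk1 and Pkm are more than 2 times above it, and Pgam2 and Slc16a1 are on it.

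None of the 30 tested genes changed at an adjusted p below 0.05 in any of the 3 comparisons (edgeR's quasi-likelihood test, Benjamini-Hochberg over all 10329 genes). Between CFZ and control the share of all tested genes called was 0.029% (3 genes), and the smallest adjusted p among the 30 was 0.608. By DESeq2, 1 of the 30 was called, Hk1, against 1.34% of all genes. An unadjusted p under 0.05 was reached by 1 of the 30 by edgeR, again Hk1, against 7.72% of all genes, and by 3 of the 30 with DESeq2, against 10.2% of all genes. The fitted log2 fold change was above 0 for 21 of the 30 and below 0 for 9, with a median of 0.12 beside -0.0034 over all tested genes, of which 49.5% were above 0. The ventricular marker sum given above was also higher in both CFZ libraries; its part in this was not tested. The FPKM of the groups did not overlap for 7 genes that were higher with CFZ (Hk1, Gpi1, Pfkm, Pfkfb1, Aldoa, Tpi1 and Ldhb), which is 23.3% of the 30 beside 12.5% of all genes. Glycogenin (Gyg) alone was lower in both CFZ libraries, 3.33% beside 20.8%.

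In CFZ_EA against CFZ, edgeR called 0 of the 30 genes and 0.0194% of all genes (2 genes), and every adjusted p among the 30 was 0.9997. Hk1 alone had an unadjusted p under 0.05 by edgeR, against 3.09% of all genes; DESeq2 called 0 of the 30 (0.532% of all genes), with 3 at an unadjusted p under 0.05, against 4.1% of all genes. The fold change was above 0 for 10 of the 30 and below 0 for 20, with a median of -0.021 beside -0.0084 over all genes. Without CFZ replicate 2 that median was 0.00073 and without CFZ_EA replicate 2 it was 0.013, so it has no settled sign. The groups did not overlap for 7 genes lower with electroacupuncture (Hk1, Gpi1, Tpi1, Eno1, Ldhb, Slc2a4 and Slc16a1), 23.3% beside 17.7% of all genes. They did not overlap either for 3 genes that were higher (Gys1, Pfkfb2 and Eno3), 10.0% beside 15.1%. This comparison and CFZ against control use the same CFZ libraries, so a gene high in them tends to differ with opposite signs in both. Hk1, Gpi1, Tpi1 and Ldhb stand in both lists, and the single genes below carry the same limit.

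In CFZ_EA against control, edgeR called 0 of the 30 and 0% of all genes, with a smallest adjusted p of 0.848. At an unadjusted p under 0.05 edgeR gave 0 of the 30 against 5.13% of all genes, and DESeq2 called 0 (0.494% of all genes), with 1 at an unadjusted p under 0.05, against 7.41% of all genes. The fold change was above 0 for 21 genes and below 0 for 9, with a median of 0.049 beside -0.0013. Scaled by library totals alone, the median of the 30 was -0.019, with 13 genes above 0, and that of all genes -0.073. The ventricular marker sum was again higher in both treated libraries than in control, with the same limit. In this comparison 6 genes were higher in both CFZ_EA libraries than in both control libraries (Hk2, Pfkm, Pfkl, Pfkfb2, Eno3 and Pygm), 20.0% beside 10.5%, and Gyg was lower, 3.33% beside 22.1%. CFZ_EA and CFZ were set against the same control libraries, so these counts are not independent of those for CFZ. The 95% interval of the fold change lay within ±1 on the log2 scale for 27, 26 and 28 of the 30 genes in the 3 comparisons, with a median half-width of 0.41.

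**Figure D3:**
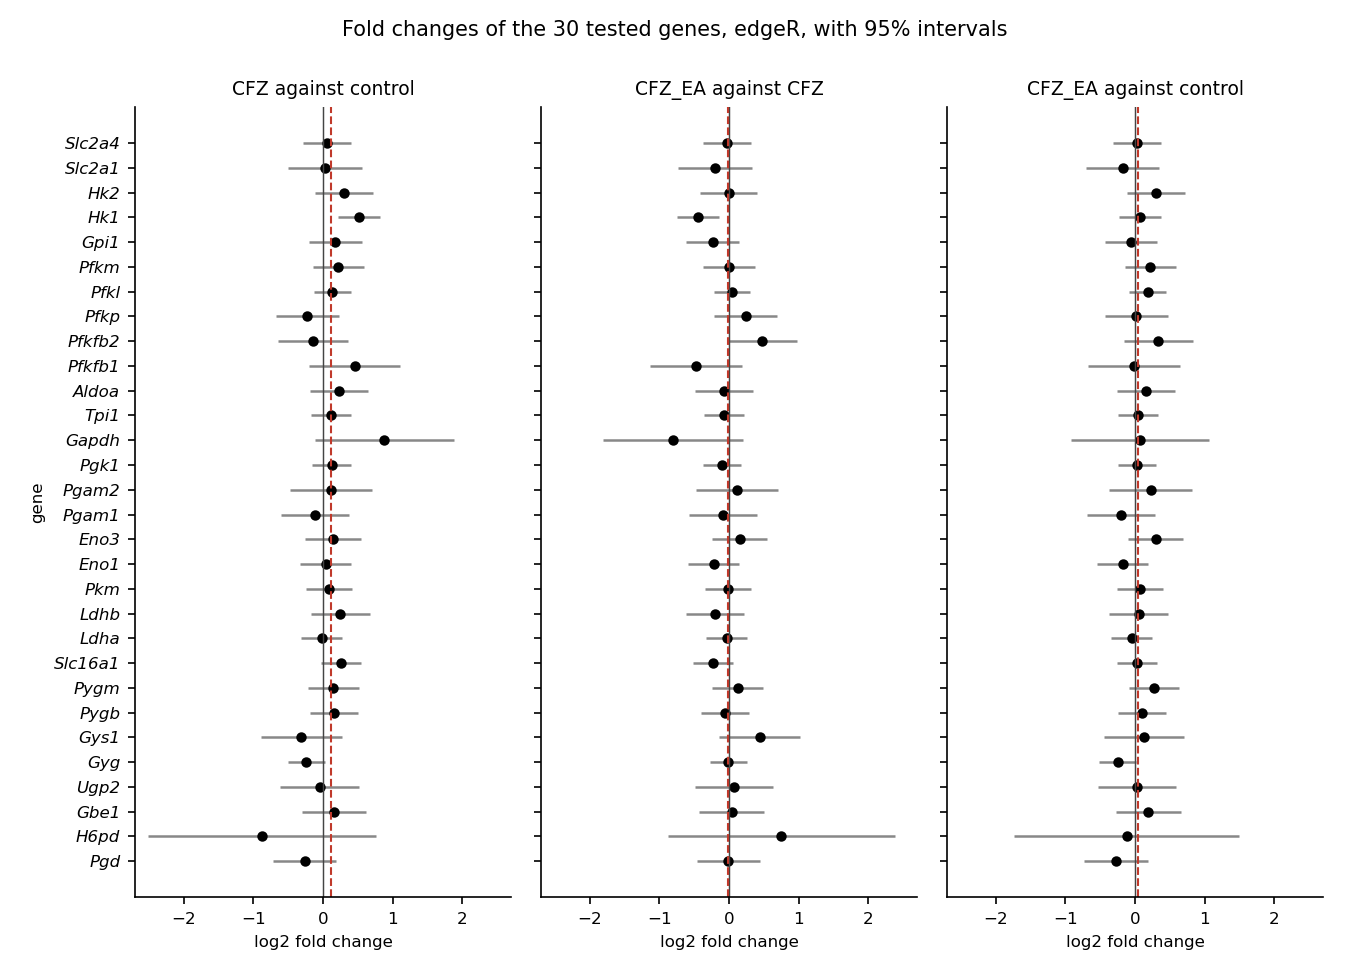
Log2 fold change (horizontal axis) of the 30 tested genes in each comparison, edgeR, with 95% intervals as bars, 0 as the solid line and the median of the 30 as the dashed line. The intervals of Hk1 exclude 0 in the first and second panels; Gapdh and H6pd have the widest intervals.

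At the point of glucose entry, Hk1, the hexokinase isoform of most tissues, which sits on the outer mitochondrial membrane, had the smallest p of the 30. The gene lies on chromosome 10 (62268855 to 62379908, minus strand, GRCm38). Its level was 16.3 and 17.2 FPKM in the control libraries, 25.8 and 20.5 FPKM with CFZ and 17.7 and 16.0 FPKM with CFZ_EA. Both CFZ libraries were above all 4 others, and the control and CFZ_EA libraries overlapped. The fold change of CFZ against control was 0.52 ± 0.12 on the log2 scale (SE; 1.43-fold; 95% interval 0.22 to 0.82; edgeR unadjusted p = 0.00565, adjusted p = 0.608). DESeq2 gave an adjusted p of 0.0261 for the same 0.52, and leaving out 1 library of either group at a time gave between 0.40 and 0.63. With electroacupuncture added, the difference from CFZ was -0.45 ± 0.12 (edgeR unadjusted p = 0.0113, adjusted p = 0.9997), and from control it was 0.07 ± 0.12. The differences of CFZ from control and from CFZ_EA rest on the same CFZ libraries and are not independent.

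Hk2, the insulin-responsive hexokinase of muscle, was at 35.9 and 31.8 FPKM in control, 45.5 and 35.6 FPKM with CFZ and 44.1 and 36.0 FPKM with CFZ_EA. Only the CFZ_EA libraries were both above control, the lower of them narrowly. The insulin-responsive transporter GLUT4 (Slc2a4) was at 143 and 127 FPKM in control, 136.3 and 136.0 FPKM with CFZ and 132 and 133 FPKM with CFZ_EA, the control libraries lying at both ends. GLUT1 (Slc2a1), the basal transporter, was at 4.26 and 5.903 FPKM in control, 5.92 and 4.03 FPKM with CFZ and 3.99 and 4.53 FPKM with CFZ_EA, and overlapped in all comparisons. Their fold changes between CFZ and control were 0.06 ± 0.14 and 0.02 ± 0.22, and neither showed a difference at this precision.

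**Figure D4:**
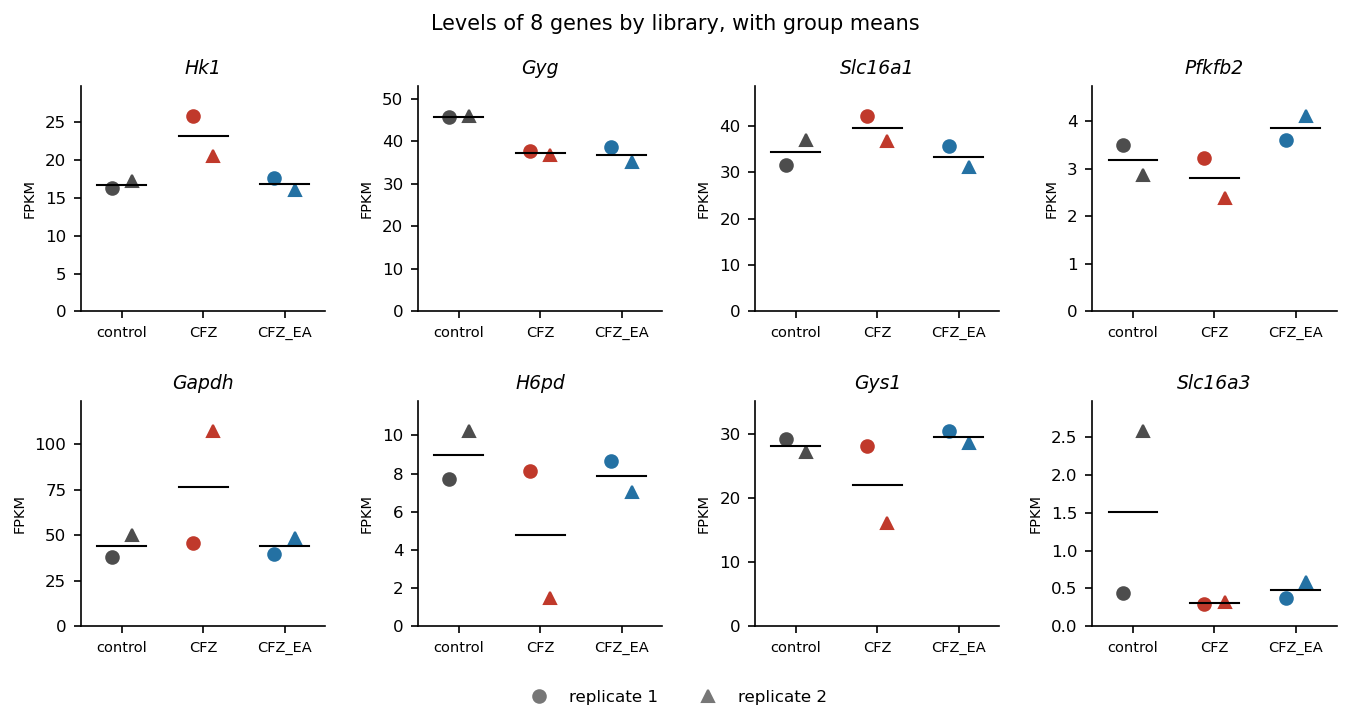
FPKM (vertical axis from 0) of 8 genes in each library, by group, with the group mean as a bar. Hk1 is higher in both CFZ libraries and Gyg lower in both CFZ and both CFZ_EA libraries, while single libraries set the group means of Gapdh, H6pd, Gys1 and Slc16a3.

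Upper glycolysis held small differences. Phosphoglucose isomerase (Gpi1) was at 90.9 and 99.004 FPKM in control, 104 and 102 FPKM with CFZ and 99.4 and 75.1 FPKM with CFZ_EA, so CFZ was highest and CFZ_EA replicate 2 lowest. Pfkm, the subunit of the rate-controlling step that muscle uses, was at 337 and 308 FPKM in control, 390.1 and 337 FPKM with CFZ and 382 and 338 FPKM with CFZ_EA. Both treated groups were above control, the lower library of each only narrowly. The liver-type Pfkl was at 18.8 and 20.4 FPKM in control, 20.3 and 20.99 FPKM with CFZ and 21.6 and 20.8 FPKM with CFZ_EA. Pfkp was at 4.98 and 4.599 FPKM in control, 4.74 and 3.21 FPKM with CFZ and 4.45 and 4.83 FPKM with CFZ_EA, with CFZ replicate 2 the low library. Aldoa, which splits fructose bisphosphate, was at 783 and 734 FPKM in control, 804 and 910.3 FPKM with CFZ and 839 and 781 FPKM with CFZ_EA. Its fold change between CFZ and control was 0.23 ± 0.17, and that of triose phosphate isomerase (Tpi1) 0.12 ± 0.12.

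Pfkfb1 and Pfkfb2 are bifunctional enzymes that set the level of fructose 2,6-bisphosphate, the activator of phosphofructokinase. Their fitted fold changes between the 2 treated groups had opposite signs, and neither passed the test. Pfkfb2, the heart isoform, was at 3.50 and 2.87 FPKM in control, 3.22 and 2.39 FPKM with CFZ and 3.61 and 4.11 FPKM with CFZ_EA. Both CFZ_EA libraries were above the other 4, and its difference from CFZ was 0.48 ± 0.20 (edgeR adjusted p = 0.9997). Pfkfb1, the liver and muscle isoform, was at 2.24 and 2.30 FPKM in control, 2.53 and 3.44 FPKM with CFZ and 1.75 and 2.54 FPKM with CFZ_EA, with a difference of -0.47 ± 0.27 between the treated groups. Reads of Pfkfb1 and of Apex2, which overlaps it on the opposite strand with 46.9% as many counts, can be told apart only if counting used strand, of which the sources say nothing. The same holds for Pfkp and Pitrm1 (59.0%) and for Gys1 and Ruvbl2 (23.5%).

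In lower glycolysis Gapdh had the highest fold change of the 30 between CFZ and control, and 1 library made it. It was at 37.9 and 50.4 FPKM in control, 45.9 and 108 FPKM with CFZ and 39.9 and 48.3 FPKM with CFZ_EA. The fitted value was 0.88 ± 0.41 (edgeR adjusted p = 0.661), and without CFZ replicate 2 it was 0.07. Likewise the difference between CFZ_EA and CFZ, -0.81 ± 0.41, was 0.01 without that library. Reads of Gapdh can also fall on near-identical copies, of which Gapdh-ps15 held 221 to 353 counts per library, so its level is uncertain; Eno1, Pgk1, Pgam1, Tpi1 and Ldha have such copies too.

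Phosphoglycerate kinase (Pgk1), the first ATP-forming step, ranged from 165 to 199.6 FPKM, and Pkm, the last one, from 257 to 278 FPKM. Pgam2 was at 1015 and 802 FPKM in control, 804 and 1090 FPKM with CFZ and 965 and 1075 FPKM with CFZ_EA. Control replicate 2 was lowest, CFZ replicate 1 just above it and CFZ replicate 2 highest. Eno3 was at 984 and 862 FPKM in control, 985 and 983 FPKM with CFZ and 1066 and 1106 FPKM with CFZ_EA. Its 2 CFZ_EA libraries were above all others, and the difference from control was 0.29 ± 0.16 (edgeR adjusted p = 0.848). The widely expressed partners Pgam1 and Eno1 were both highest in control replicate 2. Pgam1 was at 33.2 and 48.9 FPKM in control, 31.95 and 40.1 FPKM with CFZ and 33.1 and 34.6 FPKM with CFZ_EA. Eno1 was at 28.3 and 40.7 FPKM in control, 34.3 and 33.4 FPKM with CFZ and 29.4 and 28.5 FPKM with CFZ_EA. Without that library the difference of Eno1 between CFZ_EA and control, -0.18 ± 0.15, became 0.03.

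For lactate, Ldhb, whose product favours the oxidation of lactate to pyruvate, was at 1081 and 988 FPKM in control, 1172 and 1202 FPKM with CFZ and 1136 and 923 FPKM with CFZ_EA. Both CFZ libraries were above the other 4, with a fold change of 0.25 ± 0.17 over control. Ldha, the form of glycolytic muscle, was at 201.1 and 239 FPKM in control, 216 and 201.2 FPKM with CFZ and 212 and 194 FPKM with CFZ_EA, and its fold change over control was -0.02 ± 0.12. The lactate carrier Slc16a1 (MCT1) was at 31.6 and 37.0 FPKM in control, 42.1 and 36.8 FPKM with CFZ and 35.6 and 31.02 FPKM with CFZ_EA; the CFZ and CFZ_EA libraries did not overlap, and control overlapped both. Its fold changes were 0.26 ± 0.12 for CFZ over control and -0.23 ± 0.12 for CFZ_EA over CFZ (edgeR adjusted p = 0.655 and 0.9997). Slc16a3, known as the exporter of glycolytic cells and of activated macrophages, was at 0.44 and 2.58 FPKM in control, 0.30 and 0.33 FPKM with CFZ and 0.37 and 0.58 FPKM with CFZ_EA, from 113 to 756 counts. The high library is control replicate 2, the library with the highest summed macrophage markers. That library also had the highest sums of fibroblast and matrix, neutrophil, smooth muscle, epicardial, erythroid and skeletal muscle markers. The part of any of these was not tested. Tested with no minimum on level, the fold change of Slc16a3 for CFZ over control was -2.10 ± 0.68 (edgeR unadjusted p = 0.0166, adjusted p = 0.716).

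The promoters of the lactate dehydrogenase and phosphoglycerate mutase pairs are printed as examples of a widely expressed and a muscle or heart member. Shares differed between libraries in the other families too. Each is the 250 bases before a RefSeq start on GRCm38.p6, read in the direction of the gene. Capitals mark ACGTG, the core of the hypoxia response element, and CTA and TAG with any 4 bases between, both on either strand. The second is called the loose MEF2 pattern here, after MEF2, a muscle transcription factor. It sets no limit on the inner bases and takes no other ending than TAG, so it cannot decide whether a MEF2 site is present.
Ldha, chr7:46845554-46845803, plus strand: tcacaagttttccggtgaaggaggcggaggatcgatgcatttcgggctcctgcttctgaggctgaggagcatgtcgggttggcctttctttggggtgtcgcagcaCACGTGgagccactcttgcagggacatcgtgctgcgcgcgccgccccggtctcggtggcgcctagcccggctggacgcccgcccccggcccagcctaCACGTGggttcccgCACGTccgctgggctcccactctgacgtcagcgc
Ldhb, chr6:142507958-142508207, minus strand: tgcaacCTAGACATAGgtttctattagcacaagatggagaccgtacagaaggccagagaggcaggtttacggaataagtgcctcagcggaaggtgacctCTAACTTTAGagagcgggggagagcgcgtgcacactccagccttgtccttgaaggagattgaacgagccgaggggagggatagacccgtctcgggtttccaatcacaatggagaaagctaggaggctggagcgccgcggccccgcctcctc
Pgam1, chr19:41911621-41911870, plus strand: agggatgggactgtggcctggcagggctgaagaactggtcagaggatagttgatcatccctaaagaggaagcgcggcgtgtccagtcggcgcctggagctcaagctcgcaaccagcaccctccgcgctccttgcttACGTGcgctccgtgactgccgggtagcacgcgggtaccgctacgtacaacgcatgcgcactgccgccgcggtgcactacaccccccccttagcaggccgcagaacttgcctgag
Pgam2, chr11:5803797-5804046, minus strand: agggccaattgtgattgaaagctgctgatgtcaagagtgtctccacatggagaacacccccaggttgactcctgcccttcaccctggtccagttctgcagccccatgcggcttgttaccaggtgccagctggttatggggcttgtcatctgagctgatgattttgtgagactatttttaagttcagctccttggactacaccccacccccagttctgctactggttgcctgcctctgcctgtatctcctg
Ldha has a second RefSeq window, chr7:46846832-46847081, which held 0 of these motifs and is not printed. The printed Ldha window held ACGTG at 5 positions, 4 of them overlapping in pairs within 2 copies of CACGTG, the E-box, which reads the same on both strands. Pgam1 held 1 ACGTG, and Ldhb and Pgam2 held 0. These pairs do not stand for the other families: ACGTG was found before Hk2, Pfkm and Pfkfb2, but not before Hk1, Pfkl, Pfkp or Pfkfb1. It was found before both Pygm and Pygb and both Slc16a1 and Slc16a3, and before neither Eno1 nor Eno3. Ldhb held the loose MEF2 pattern at 2 positions, both with G or C among the 4 inner bases, so they are not read as MEF2 sites. In the Pgam2 window, CTA and TAA stand with only T between, which the pattern does not take in. The search therefore does not show which of these genes has a MEF2 site. RefSeq windows matched 30 of the 31 genes (47 windows). ACGTG was found in 17 of these 47 (36.2%) beside 16.6% of 32851 windows of the same length, and CACGTG, which contains it, in 8.51% beside 6.02%. GGGCGG, the GC box, which is not marked in the printed windows, was found in 44.7% beside 32.7%. A higher share was thus not particular to ACGTG. Windows of 1 gene can overlap and count a site more than once, as for Aldoa. By gene, ACGTG was found for 14 of 30, with no share by gene over all genes to set beside it. The loose MEF2 pattern was found in 2.13% beside 3.2%, which for the same reason is no measure of MEF2 sites. A match is a description of the letters and not of binding.

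Among the glycogen genes, Gyg, which primes new glycogen, was lower in all 4 libraries from treated mice. It lies on chromosome 3 (20122084 to 20155317, minus strand, GRCm38). Its level was 45.6 and 46.0 FPKM in control, 37.8 and 36.8 FPKM with CFZ and 38.6 and 35.1 FPKM with CFZ_EA. The 2 treated groups overlapped each other and neither overlapped control. The fold changes were -0.24 ± 0.11 and -0.25 ± 0.11 over control (edgeR adjusted p = 0.656 and 0.848), and -0.01 ± 0.11 between the treated groups.

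Glycogen synthase (Gys1) was at 29.1 and 27.1 FPKM in control, 28.1 and 16.0 FPKM with CFZ and 30.4 and 28.6 FPKM with CFZ_EA. The low value is that of CFZ replicate 2 alone: the fold change over control was -0.31 ± 0.24 with it and 0.0016 without it. Pygm, which releases glucose phosphate from glycogen, was at 391.0 and 355 FPKM in control, 413 and 386 FPKM with CFZ and 454 and 410.2 FPKM with CFZ_EA. Both CFZ_EA libraries were above control, by 0.27 ± 0.15 on the log2 scale (edgeR adjusted p = 0.848), and CFZ overlapped both groups. The brain isoform Pygb was at 199.2 and 196 FPKM in control, 226 and 198 FPKM with CFZ and 219 and 187 FPKM with CFZ_EA. Ugp2, which makes UDP-glucose, ranged from 19.7 to 28.7 FPKM, and the branching enzyme Gbe1 from 3.70 to 4.89 FPKM, and in all 3 genes the groups overlapped.

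Of the pentose phosphate enzymes, H6pd, which acts in the endoplasmic reticulum, was at 7.71 and 10.2 FPKM in control, 8.14 and 1.46 FPKM with CFZ and 8.67 and 7.02 FPKM with CFZ_EA. CFZ replicate 2 was far below the other 5, with 533 counts against 2528 to 3251. The fold change over control was -0.87 ± 0.67 (edgeR adjusted p = 0.758), -0.13 without that library and -2.50 without the other CFZ library. Pgd, the cytosolic phosphogluconate dehydrogenase, was at 5.98 and 9.50 FPKM in control, 6.42 and 5.88 FPKM with CFZ and 5.98 and 6.15 FPKM with CFZ_EA, so control replicate 2 was high and the other 5 close together. Without control replicate 2 its fold change for CFZ over control moved from -0.26 to 0.02.

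Families are grouped here by the library with the lowest share of the muscle or heart form (for the lactate carriers, of Slc16a1). In 7 of the 9 families that form held the larger share in every library, and its share was lowest in control replicate 2 (plot of isoenzyme shares). Pfkm made up 92.5% of the summed phosphofructokinase FPKM in that library and 92.96% to 94.0% in the other 5. Pgam2 made up 94.3% of the Pgam pair there and 96.2% to 96.9% in the others. For Eno3 the shares were 95.5% there and 96.6% to 97.5% in the others. Ldhb held 80.6% of the Ldh pair in control replicate 2 and 82.6% to 85.7% elsewhere, and Slc2a4 95.6% of the glucose transporter pair and 95.8% to 97.1% elsewhere. Slc16a1 held 93.5% of the lactate carrier pair there and 98.2% to 99.3% elsewhere, and Pygm 64.5% of the phosphorylase pair and 64.6% to 68.7% elsewhere. That library also had the lowest sum of ventricular cardiomyocyte markers and the highest sums of matrix and macrophage markers given above; their part in the shares was not tested. Between groups, Pygm had a higher share in both CFZ_EA libraries (67.4% and 68.7%) than in the other 4 (64.5% to 66.2%).

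In the other 2 families the lowest share was that of CFZ replicate 2. Hk2 made up 68.8% and 64.9% of the hexokinase pair in control, 63.8% and 63.4% with CFZ and 71.4% and 69.2% with CFZ_EA. The 3 groups did not overlap: the share was lowest with CFZ and highest with CFZ_EA. The gaps to control were narrow, at 63.8% against 64.9% and at 69.2% against 68.8%. The pair is among 9 families viewed, with no share over other gene pairs to set beside this. Hk2 itself overlapped between CFZ and control, and Hk1 between CFZ_EA and control. Rescaled to the main transcripts, Hk1 and Hk2 were near parity, with Hk1 at 50.2% on average instead of 33.1%, and the order of the libraries is the same by construction. Pfkfb2 made up 61.0% and 55.6% of its pair in control, 56.0% and 40.9% with CFZ and 67.3% and 61.8% with CFZ_EA, so that the CFZ_EA libraries were above both other groups.

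**Figure D5:**
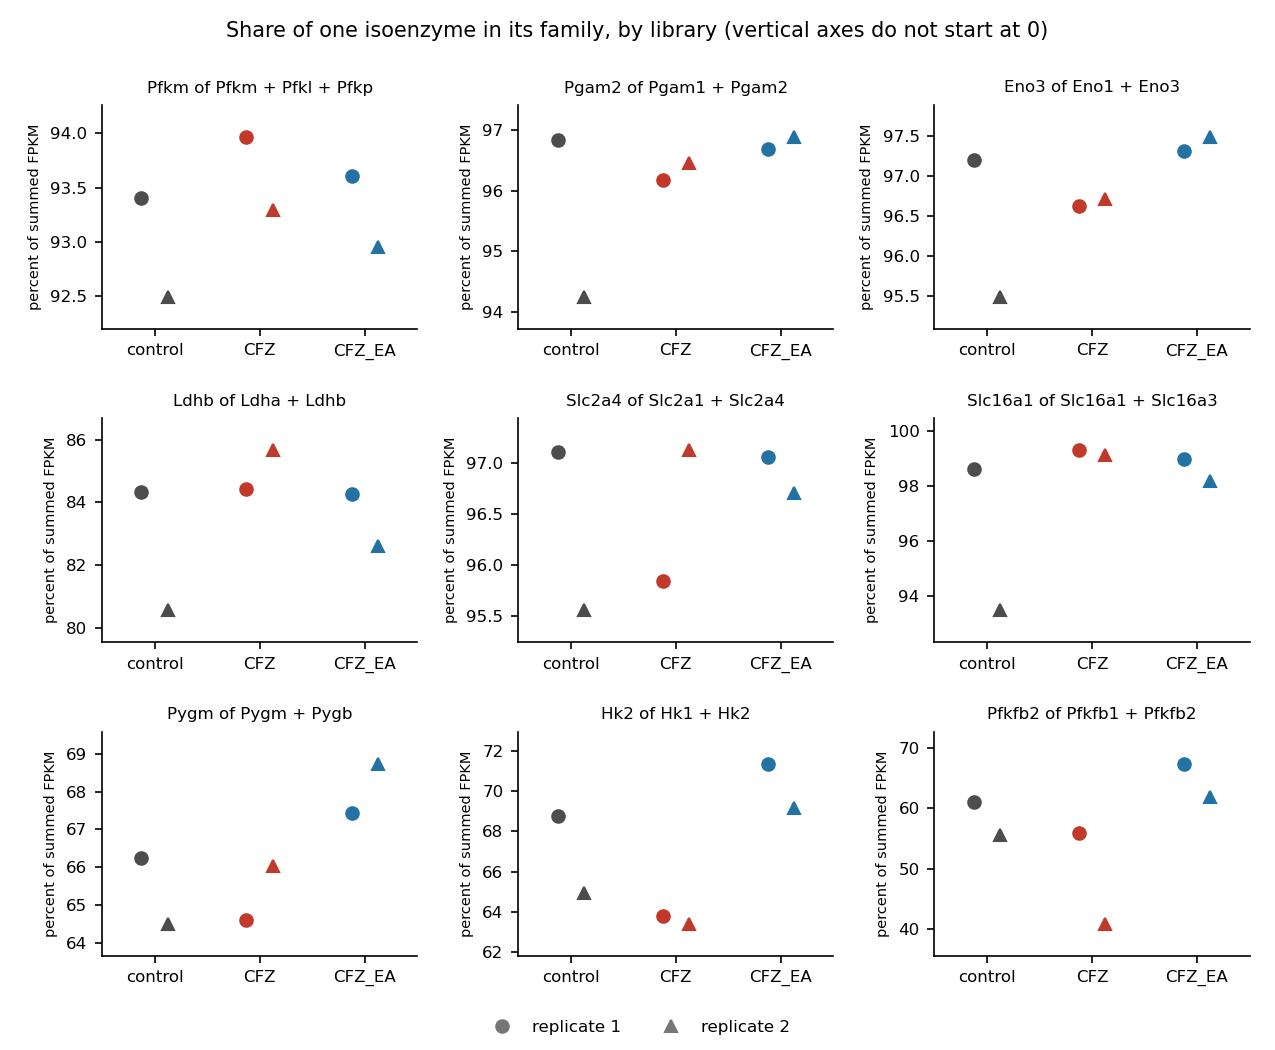
Share of the summed FPKM of a family held by 1 isoenzyme (vertical axes in percent, not from 0), by group, with 1 point per library. Control replicate 2 is lowest in the first 7 panels. In the Hk2 panel both CFZ points (63.8% and 63.4%) are below and both CFZ_EA points (71.4% and 69.2%) above the control points. The nearest point of each group is only narrowly so.

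Regulators and further enzymes of carbohydrate metabolism were read from a list of 75 genes, of which 55 were tested. In each comparison edgeR called 0 of the 55, with 2, 1 and 0 at an unadjusted p under 0.05, beside 7.72%, 3.09% and 5.13% of all genes. DESeq2 also called 0, with 3, 3 and 1 at an unadjusted p under 0.05, beside 10.2%, 4.1% and 7.41% of all genes. The fold change was above 0 for 34 and below 0 for 21 in CFZ against control (median 0.06), for 25 and 30 in CFZ_EA against CFZ (median -0.03), and for 38 and 17 in CFZ_EA against control (median 0.05). Hif1a, the oxygen-regulated activator of many glycolytic genes, had the smallest p in CFZ against control, at 3.24 and 3.36 FPKM in control, 2.46 and 2.11 FPKM with CFZ and 2.90 and 3.17 FPKM with CFZ_EA. Both CFZ libraries were below all 4 others, by -0.48 ± 0.14 from control (edgeR adjusted p = 0.608), and CFZ_EA differed from CFZ by 0.42 ± 0.14 (adjusted p = 0.9997). Txnip, which rises with glucose and restrains glucose uptake, was at 79.7 and 66.2 FPKM in control, 184 and 96.9 FPKM with CFZ and 78.9 and 92.2 FPKM with CFZ_EA. Both CFZ libraries were above the other 4, CFZ replicate 1 by far the most, with a fold change of 0.98 ± 0.29 over control (edgeR adjusted p = 0.608) and -0.69 ± 0.29 for CFZ_EA over CFZ.

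The remaining genes of the list with the smallest p in each comparison are given by their levels. Pdk3, a kinase that closes pyruvate dehydrogenase, was lower with CFZ than in control in both libraries (0.95 and 0.78 FPKM against 1.42 and 1.80 FPKM). Ppp1r3b, which brings a phosphatase to glycogen, was at 2.43 and 3.30 FPKM with CFZ and 2.29 and 1.87 FPKM in control. Phkb, a subunit of phosphorylase kinase, was higher in both CFZ_EA libraries (2.71 and 2.64 FPKM) than in the other 4 (2.03 to 2.34 FPKM). Tbc1d1, a regulator of GLUT4 traffic, was at 2.43 and 5.87 FPKM with CFZ_EA and 2.45 and 1.81 FPKM with CFZ, which overlap. Bpgm, the enzyme of bisphosphoglycerate in red cells, was lower with CFZ_EA (5.94 and 5.599 FPKM) than in control (6.97 and 7.70 FPKM). With CFZ it was at 6.89 and 6.39 FPKM, also below control. The summed erythroid markers were lower than control in both treated groups too, and their part in this was not tested. G6pdx, the first enzyme of the cytosolic pentose phosphate pathway, was at 5.96 FPKM in control replicate 2 and 2.58 to 3.09 FPKM in the other 5. Mlxipl, a glucose-sensing transcription factor, was at 3.48 and 3.39 FPKM with CFZ_EA against 2.90 and 2.39 FPKM in control. None of these passed the adjusted test.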

How the data were processed

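The submitters' processing notes list cutadapt 1.9, HISAT2 2.0.4 and StringTie 1.3.4d, and GRCm38 as the build, with no role for each. Per the labels, the poly(A) libraries mark strand with dUTP; use of strand in counting and handling of reads with several positions are not stated. Per the file headers the authors deposited FPKM values and, for each gene and library, counts, taken here as estimated counts. The counts were whole numbers as deposited. Of the counts from 1 to 20, 42.2% to 43.3% were multiples of 4, so that 1 count need not be 1 read. Genes with a mean of at least 1 FPKM (10329) were fitted over all 6 libraries with edgeR 4.0.16 in R 4.3.3 (TMM factors, quasi-likelihood test, 3 residual degrees of freedom, Benjamini-Hochberg over all genes, called under 0.05). Alternatives were DESeq2 1.42.0, limma 3.58.1 on log2(FPKM + 1) and log2(FPKM + 0.1), other scalings and filters, a replicate block and leaving out libraries. By rule all 31 genes are named, with the FPKM in every library for those with an unadjusted p under 0.05 and for the isoenzyme families, and per comparison the 4 genes of the list of 75 with the smallest p; other genes given by library were picked after their values were seen. Members and lists were chosen with earlier results of these data known.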

Additional observations from a re-analysis of the deposited data

How the results depend on the processing

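Of 1515 alternative values of the 90 fold changes of the 30 genes, 1 passed the threshold (Hk1 in CFZ against control with DESeq2, 0.52) and 128 changed sign. Of these, 119 belong to fold changes within 1 SE of 0, taken to have no direction, and 9 to fold changes beyond it. Without control replicate 2, Pgd turned to 0.025 in CFZ against control (0.025 without CFZ_EA replicate 2 as well, the values in brackets that follow being of this kind), and in CFZ_EA against control Pgd turned to 0.019, Gbe1 to -0.040 (-0.026) and Eno1 to 0.029 (0.036). Without CFZ replicate 2, Gys1 turned to 0.0016 in CFZ against control and Gapdh to 0.011 in CFZ_EA against CFZ. Over the settings that leave out 1 library, or control replicate 2 with CFZ_EA replicate 2, they ran, for CFZ against control, from -0.50 to 0.025 (Pgd) and -0.71 to 0.0016 (Gys1), for Gapdh in CFZ_EA against CFZ from -1.32 to 0.011, and for CFZ_EA against control from -0.51 to 0.019 (Pgd), -0.040 to 0.47 (Gbe1) and -0.35 to 0.036 (Eno1). The cause was not tested. The number of genes called in CFZ against control was 3, 138 with DESeq2, 0 with only those 2 groups fitted, 0 to 332 on leaving out 1 library (332 without control replicate 1) and 32 without control replicate 2 and CFZ_EA replicate 2. In CFZ_EA against CFZ it was 2, 55 with DESeq2 and 0 to 4 on leaving out 1 library; in CFZ_EA against control it was 0, 51 with DESeq2, 0 to 231 on leaving out 1 library (231 without control replicate 1) and 1 without both named libraries. Of the 30 genes, DESeq2 called 1 in CFZ against control. A fit that leaves an arm with 1 library assumes that it varies like the other groups. Replicate numbers did not pair the libraries (correlations of -0.066, -0.055 and 0.075 across genes), and with a replicate block 2, 2 and 0 genes were called. Mean shares of the first isoenzyme, by FPKM, by counts and by counts per base of the main transcript (the last added after seeing the data), were 33.1%, 41.4% and 50.2% for Hk1, 93.3%, 85.5% and 88.7% for Pfkm, 42.9%, 29.8% and 51.3% for Pfkfb1, 3.19%, 9.23% and 7.28% for Eno1, 16.4%, 29.2% and 23.3% for Ldha and 66.3%, 56.8% and 64.1% for Pygm. Pgam1 went from 3.79% to 8.47% by counts.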
